A study of Mus musculus with 12 samples.

Results

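The miR-297, miR-466, miR-467 and miR-669 families are rodent miRNA families with many gene copies, most of which lie side by side within the Sfmbt2 gene. They were followed here in the exosomes of mouse granulosa cells. All entries of the count files named miR-297, miR-466, miR-467 or miR-669 were taken, with any letter and arm and with entries that join 2 names. This gave 13 of the 637 entries (2.04%). They were 4 miR-466 entries, 3 miR-467 entries and 6 miR-669 entries, and 0 entries were named miR-297. Each of the 637 entries had at least 1 count in some library, so a miRNA without an entry cannot be told apart from one without a count.

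Small RNA was sequenced from exosomes released into the medium of ovarian granulosa cells, which came from gonadotropin-primed mice and were separated from follicular fluid by a strainer and centrifugation. All cells spent 24 h in exosome-free medium before a culture of 48 h under 1 of 4 conditions. Nothing was added in the CON group, while ferric citrate at 100 μM loaded the cells of the FAC group with iron. Ferric citrate at the same dose was combined with 100 μM of the iron chelator deferoxamine mesylate in the DFO group, and with 200 μM of the antioxidant vitamin E, named VITE in the labels, in the VE group. Each group had 3 libraries, and no source used here says whether these came from separate cultures or mice, so the p-values measure the spread between libraries, which may be technical.

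Sfmbt2 encodes a Polycomb group protein and is expressed from the paternal allele in the extraembryonic tissues of the mouse. One of its introns holds a large block of tandem miRNA genes, which arose in rodents by repeated duplication. A miRNA gene is transcribed as part of a longer RNA and cut to a hairpin, and from each hairpin a 5p and a 3p strand can be kept. The strand that is kept is loaded into an Argonaute protein and pairs with target mRNAs mainly through its seed, bases 2 to 8. Several of these miRNAs are runs of alternating purines and pyrimidines, so that copies differ in few bases and short reads of such a sequence can fit more than 1 gene.

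In the mouse RefSeq annotation (GRCm38.p6), 81 genes carry one of the 4 family numbers, and 71 of them lie within Sfmbt2. These are 5 of 6 miR-297 genes, 23 of 28 miR-466 genes, 14 of 17 miR-467 genes and 29 of 30 miR-669 genes. All 71 lie in the same intron of Sfmbt2 in the GENCODE annotation. Of the 13 entries, only miR-466i-3p matched a gene outside Sfmbt2. By name, miR-467a-3p can come from 10 of these genes and the joined entry miR-669a-3p/miR-669o-3p from 12, whereas the other 11 entries match 1 gene each. For the joined entry miR-466a-3p/miR-466e-3p this was the miR-466e gene. No gene was matched to the name miR-466a, so the number of its copies is not known here. An entry with several genes gives the sum over its copies, and the copies cannot be told apart. No coordinates are given, because the submitters' processing notes name mm9, another build. The intron held 1 further miRNA gene outside the 4 families, which matched no entry by name.

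RefSeq mature sequences were matched by name to 549 of the 637 entries and to 1 of the 13, miR-466i-3p. It is printed here with 3 AC-rich and 2 GU-rich miRNAs that bear family names but have no entry, because they show the repeats on which these families are built. The last line shows miR-672-5p, which belongs to none of the families. Among the 549 matched entries, it was the only other one whose sequence holds one of the repeats UGUGUGUG and ACACACAC. Entries without a matched sequence, miR-669c-5p among them, were not searched. Capitals mark the seed, bases 2 to 8.
miR-466i-3p: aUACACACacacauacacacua
miR-467f: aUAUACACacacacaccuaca
miR-466q: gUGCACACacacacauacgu
miR-467g: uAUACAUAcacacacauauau
miR-466k: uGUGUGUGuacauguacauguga
miR-669n: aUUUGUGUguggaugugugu
miR-672-5p: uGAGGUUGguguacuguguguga

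The repeats were searched on the given strand of the mature RNA only. UGUGUGUG was present in 7 of 1679 RefSeq mouse sequences (0.417%) and ACACACAC in 4 (0.238%). Of the 8 family sequences that the table holds, 6 had one of them, and outside the families UGUGUGUG was in 5 of 1671 sequences and ACACACAC in 0. The 6 family sequences above have 6 different seeds. The sequence nearest to miR-466i-3p was miR-467f, at an edit distance of 5 bases, and the nearest with an entry was miR-350-3p, at 8. Near-identical copies could be judged for the other 12 only by their names. Of the 5 joined entries in the files, 2 belonged to these families, miR-466a-3p/miR-466e-3p and miR-669a-3p/miR-669o-3p. For the 2 joined entries outside the families whose sequences could be compared, both names had the same mature sequence.

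Between 452021 and 7565362 reads were counted on miRNAs in the 12 libraries, against 22631206 to 24845945 reads in the library totals recovered from the RPM values. Levels are therefore given on both scales. CPM is relative to the miRNA counts of a library, and RPM, deposited by the authors, is relative to the library total. The miRNA share was lowest in the CON group (3.28% ± 1.55, SD, n = 3) and highest in the FAC group (24.7% ± 4.96, SD, n = 3), with 12.6% ± 7.16 in DFO and 11.97% ± 2.69 in VE, so the scales can order the groups differently. A level of 3 counts, used as the floor, lay between 0.397 and 6.64 CPM. Intervals and floors cover counting error only, because amplified reads are not independent molecules. As a check of the cell type, 4 of the 5 granulosa cell miRNAs listed had an entry, and their sum was 907 to 3820 CPM. Most of it was miR-21a-5p at 887 to 3284 CPM, which is not particular to these cells. Every library held miR-224-5p, at 10.8 to 734 CPM. At most 54.6 CPM was reached by miR-132-3p, which was at 0 in 2 libraries, and miR-212-3p was at 0 in 10 of the 12. In contrast, miR-122-5p, the main miRNA of liver, stood at 47710 to 170800 CPM in every library. Of 3 muscle miRNAs listed, 2 had an entry, and these went different ways. In DFO miR-206-3p was at 344 to 826 CPM, against 14.3 to 246 in the 9 other libraries, and miR-1a-3p was at 2.96 to 59.5 CPM in DFO and 0 to 485 in CON. The sum of the pair was 349 to 829 CPM in DFO, 246 to 597 in CON, 183 to 212 in FAC and 129 to 153 in VE. The part of these markers in the results was not tested.

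One strand carried nearly all of the signal. Mature miR-669c-5p was found in all 12 libraries and was the 60th of the 637 entries by mean CPM, while the entry next in mean CPM, miR-467d-3p, was the 229th. It was the only entry of the 13 with a 5p arm; 11 were 3p strands and miR-466g has no arm in its name. It held 88.7% to 100.0% of the counts of the 13 entries in 11 libraries, and 47.9% in VE replicate 3. That library also held the most miR-451a, an erythroid miRNA, at 3423 CPM against 658 and 725 in the other VE libraries, and 54.4 CPM of the leukocyte miR-142a-5p against 0 in both. The 2 erythroid miRNAs summed to 45.7 to 811 CPM in CON, 432 to 585 in FAC, 8.21 to 628 in DFO and 658 to 3423 in VE, with miR-144-3p at 0 in 11 libraries. The 3 leukocyte miRNAs summed to at most 2.21 CPM in CON, 7.86 in FAC, 0.329 in DFO and 54.7 in VE, with miR-223-3p and miR-142a-3p at 0 in 11 libraries each. Their part in the results of VE replicate 3 was not tested. The strand partner of miR-669c-5p, miR-669c-3p, has no entry.

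**Figure D1:**
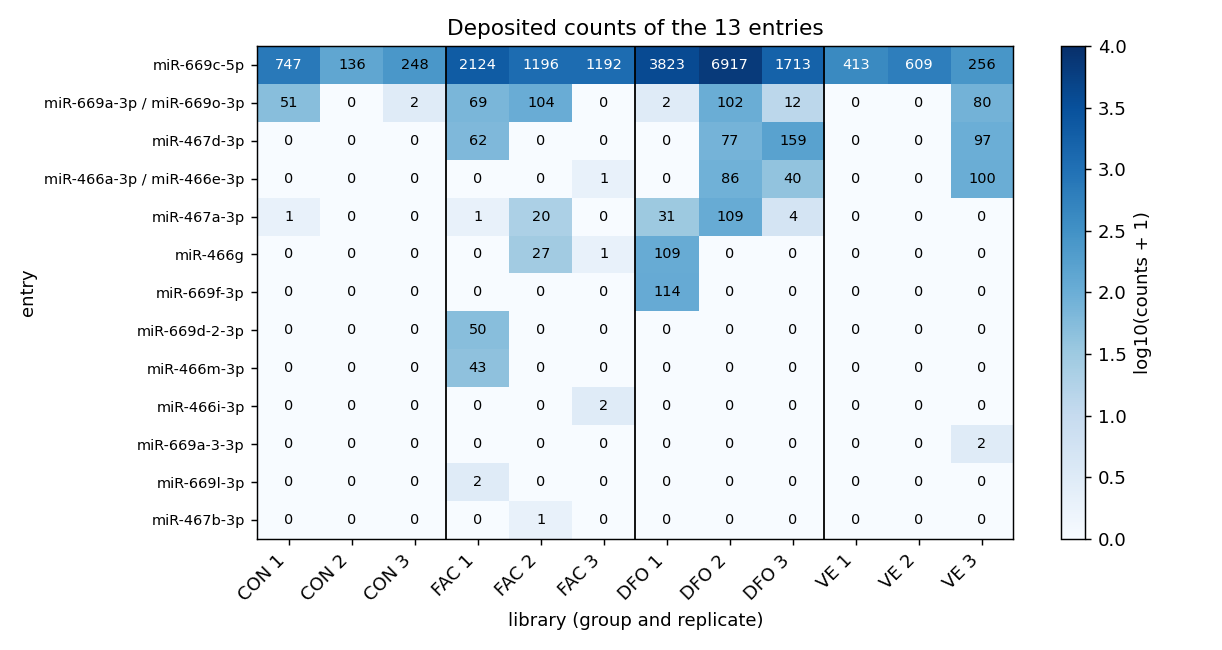
Deposited counts of the 13 entries (rows) in the 12 libraries (columns, 3 per group). The number in each cell is the count and the shade is log10(counts + 1). The first row, miR-669c-5p, is filled in every library, from 136 to 6917 counts, while most other cells are 0.

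The counts of miR-669c-5p were 747, 136 and 248 in the CON libraries, 2124, 1196 and 1192 in FAC, 3823, 6917 and 1713 in DFO, and 413, 609 and 256 in VE. As CPM these were 617, 301 and 354 in CON, 281, 229 and 220 in FAC, 1256, 1418 and 1247 in DFO, and 185.4, 207 and 72.5 in VE. All 3 DFO libraries stood above the 9 others on this scale. The smallest count, 136 in CON replicate 2, had a 95% Wilson interval of 254 to 356 CPM, so the counting error was smaller than the distance to the DFO libraries.

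The group means were 1307 ± 96.3 CPM in DFO, 424 ± 169 in CON, 243 ± 32.7 in FAC and 155 ± 72.2 in VE (SD, n = 3 each). In CPM the ranges of the 4 groups did not overlap, although the lowest CON library and the highest FAC library, 301 and 281 CPM, were close, as were the lowest FAC and the highest VE library, 220 and 207 CPM. With TMM factors, which adjust the library size for composition, FAC at 160 to 249 CPM and VE at 80.5 to 222 CPM overlapped, and DFO and CON did not overlap with any group. The level in DFO was 5.37 times that in FAC, 3.08 times that in CON and 8.44 times that in VE, by the ratio of mean CPM.

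Relative to the library total the order was another one. The RPM values of miR-669c-5p were 30.8, 6.01 and 10.0 in CON, 85.5, 49.6 and 48.6 in FAC, 157, 282 and 69.0 in DFO, and 17.1, 25.1 and 10.6 in VE. DFO again had the highest mean, 169 ± 107 RPM, but FAC came second with 61.2 ± 21.0, and VE (17.6 ± 7.28) and CON (15.6 ± 13.3) overlapped (SD, n = 3 each). DFO and FAC overlapped too, since DFO replicate 3 lay below FAC replicate 1, while both lay above all CON and VE libraries.

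**Figure D2:**
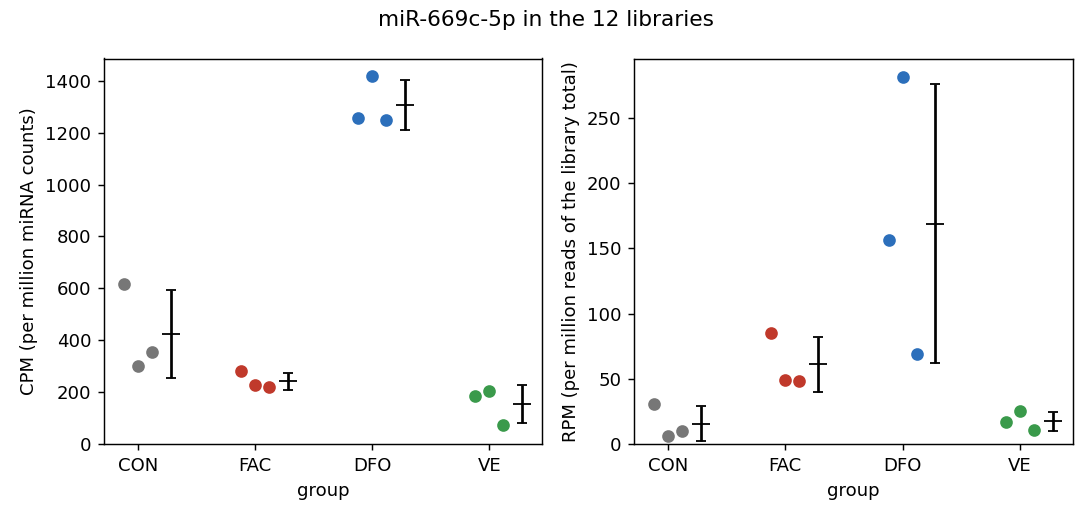
Level of miR-669c-5p in the 12 libraries, in CPM of the miRNA counts (left) and in RPM of the library total (right). Each point is 1 library, and the bar beside each group is the mean with its SD (n = 3). DFO is highest on both scales, while FAC lies below CON on the left and above it on the right.

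The families were tested on the counts in edgeR's quasi-likelihood test with TMM factors and all 4 groups in 1 fit. An entry was called past the threshold at a fold change of at least 1.5 and an unadjusted p under 0.05, the study's threshold, and adjusted p-values are after Benjamini-Hochberg over all 547 entries tested. Of the 13 entries, 9 had the 10 counts over the 12 libraries that the filter asked for. For 3 of the 9, miR-466m-3p, miR-669d-2-3p and miR-669f-3p, all counts came from 1 library, so these passed the filter only through the group where they were high and had to differ. The comparisons share libraries and are not independent of each other.

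With iron against no addition (FAC against CON), 0 of the 9 entries were past the threshold, against 52 of the 547 tested (9.51%). None of the 9 had an unadjusted p under 0.05, and DESeq2 called 1, miR-669c-5p. In edgeR miR-669c-5p was lower in FAC by a log2 fold change of -1.06 (SE 0.87, edgeR adjusted p = 0.607). This direction turns with the scale. With library read totals in place of miRNA counts, edgeR gave a log2 fold change of 1.97 (SE 1.06, adjusted p = 0.191), and limma on log2(RPM + 1) gave 2.15 (SE 0.65, adjusted p = 0.0342), with every FAC library above every CON library in RPM. The median log2 fold change of all tested entries moved too, from 1.38 with TMM factors to 4.35 with library read totals. Relative to it, miR-669c-5p lay lower in both edgeR fits, and higher in the limma fit, where the median was 0.96. Library read totals moved the median of all tested entries from 0.66 to 1.88 in FAC against DFO, from 0.63 to 1.88 in FAC against VE, from 0 to 1.45 in DFO against CON and from 0 to 0.99 in VE against CON, and left it at 0 in DFO against VE.

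With iron alone against iron and chelator (FAC against DFO), 2 of the 9 entries were past the threshold, miR-669c-5p and miR-669f-3p, both lower in FAC, against 67 of the 547 tested (12.2%). For miR-669c-5p the log2 fold change was -2.56 (SE 0.91), with an edgeR adjusted p of 0.136. It was past the unadjusted threshold in all 6 edgeR fits that left out 1 FAC or DFO library, at log2 fold changes of -2.70 to -2.51. Relative to library totals the direction held, but the threshold was missed, with a log2 fold change of -1.47 (SE 1.04, edgeR adjusted p = 0.341). Over the 10 alternatives the adjusted p ran from 1.62e-08 in DESeq2 to 0.441 in limma on log2(RPM + 0.1).

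The call of miR-669f-3p rested on a single library. It had 114 counts in DFO replicate 1 and 0 in the 11 other libraries. Since DFO replicates 2 and 3 were at 0 like the FAC libraries, no fold is given for the groups (edgeR adjusted p = 0.378). DESeq2 gave it no p and filterByExpr left it out, and both called miR-466a-3p/miR-466e-3p beside miR-669c-5p. The call was also lost without any one of the FAC libraries. Without DFO replicate 1 it had no count at all, and 1 entry, miR-669c-5p, was past the threshold.

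With iron alone against iron and VITE (FAC against VE), 0 of the 9 entries were past the threshold, against 51 of the 547 tested (9.32%). None of the 9 had an unadjusted p under 0.05, and DESeq2 called 0. The log2 fold change of miR-669c-5p was 0.41 (SE 0.86, edgeR adjusted p = 0.861), with every FAC library above every VE library in CPM and in RPM, but not with TMM factors. With library read totals it was 1.8 (SE 1.05, edgeR adjusted p = 0.358), where the median of all tested entries was 1.88. Limma on log2(RPM + 1) gave 1.77 (SE 0.65, adjusted p = 0.201), past the unadjusted threshold. Limma on log2(RPM + 0.1) gave 1.83 (SE 0.94), not past it. Without FAC replicate 1, 1 entry passed, miR-467d-3p, which was lower in FAC.

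Against the untreated libraries, DFO had 1 of the 9 entries past the threshold, miR-467d-3p, against 42 of the 547 tested (7.68%). Its counts were 0, 77 and 159 in DFO and 0 in each CON library. With counts pooled by group, this is 25.4 CPM in DFO against a floor of 1.27 CPM in CON, a pooled level at least 20-fold higher (edgeR adjusted p = 0.54). Without DFO replicate 3 the pooled bound was 7.66-fold, and these bounds do not cover the spread between libraries. DFO replicate 1 had no count either, so the groups overlapped, and the call was lost without any one of the CON libraries or without DFO replicate 3. For miR-669c-5p the log2 fold change was 1.5 (SE 0.87, edgeR adjusted p = 0.658), with every DFO library above every CON library. It missed the threshold there but was called by DESeq2 (adjusted p = 0.0101), by limma with log2(RPM + 1) at an adjusted p of 0.0428, and by edgeR after filterByExpr at an adjusted p of 0.456, whereas DESeq2 and filterByExpr did not call miR-467d-3p. It was larger relative to library totals, at 3.44 (SE 1.12, edgeR adjusted p = 0.0607).

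For VE against CON, 0 of the 9 entries were past the threshold, against 57 of the 547 tested (10.4%). None of the 9 had an unadjusted p under 0.05, and DESeq2 called 1, miR-669c-5p. For miR-669c-5p the log2 fold change was -1.48 (SE 0.87, edgeR adjusted p = 0.527), and it was 0.17 (SE 1.02, edgeR adjusted p = 1.0) with library read totals. DESeq2 gave -1.69 (SE 0.43, adjusted p = 0.00254). After filterByExpr, edgeR gave -1.54 (SE 0.65, adjusted p = 0.357), past the unadjusted threshold. Without VE replicate 1, 1 entry passed, miR-467d-3p, which was higher in VE.

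DFO and VE, the groups with the highest and the lowest mean CPM of miR-669c-5p, were compared after their values had been seen. The p-values of miR-669c-5p in this comparison are therefore not those of a planned test and serve as descriptions only. Here 1 of the 9 entries was past the threshold, miR-669c-5p, against 65 of the 547 tested (11.9%). Its log2 fold change was 2.97 (SE 0.92), with an edgeR adjusted p of 0.0631. It was past the unadjusted threshold under all 10 alternatives and in all 6 fits without 1 library, with adjusted p-values from 9.14e-12 in DESeq2 to 0.404 in limma on log2(RPM + 0.1). The fold was nearly the same relative to library totals, at 3.27 on the log2 scale (SE 1.11). With the 4 groups in 1 edgeR fit, TMM factors and the filter of 10 counts, none of the 9 entries had an adjusted p under 0.05 in any of the 6 comparisons, against 1 to 11 of all tested entries. Other filters or group sets in edgeR brought miR-669c-5p under 0.05. In FAC against DFO its adjusted p was 0.0239 with filterByExpr and 0.0331 with the 2 compared groups alone, and in DFO against VE it was 0.0453 with filterByExpr, 0.0401 without a filter and 5.24e-05 with the 2 groups alone.

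**Figure D3:**
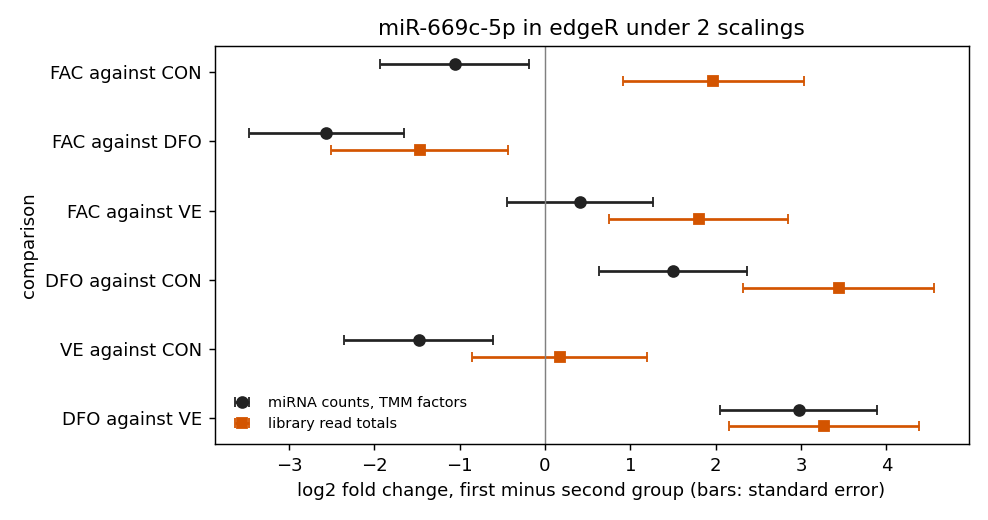
Log2 fold change of miR-669c-5p (first minus second group) in the 6 comparisons, from edgeR with miRNA counts and TMM factors (circles) and with library read totals (squares). Bars are standard errors. FAC against CON and VE against CON lie on opposite sides of 0 under the 2 scalings, and DFO lies above FAC, CON and VE under both.

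By separation of the groups in CPM, miR-669c-5p was the only one of the 9 entries that did not overlap in FAC against CON, FAC against DFO, FAC against VE and VE against CON, where 13.2%, 15.5%, 15.0% and 12.6% of all tested entries did not overlap. In DFO against CON and DFO against VE, 2 of the 9 did not overlap, miR-669c-5p and miR-467a-3p, beside 6.4% and 13.7% of all tested entries. For miR-467a-3p the lowest DFO library, replicate 3, had 4 counts (2.91 CPM). This lay below the floor of 6.64 CPM in CON replicate 2 and 4.28 CPM in CON replicate 3, which had no count of it. Its separation from CON was thus within the detection limit. Among the 547 tested entries, 2 had 4 groups in CPM without any overlap, miR-669c-5p and miR-672-5p. On the scale with TMM factors this number was 0, and in RPM it was 1, miR-412-5p, which belongs to none of the families.

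The GU-rich miR-672-5p, whose gene is no member of these families, showed the same order of groups in CPM. It measured 1806, 2049 and 1956 CPM in CON, 1275, 1159 and 1339 in FAC, 2239, 3049 and 3506 in DFO, and 905, 761 and 777 in VE. Its mean in DFO was 2.33 times that in FAC, where miR-669c-5p differed 5.37 times. The log2 fold change of miR-672-5p in FAC against DFO was -1.34 (SE 0.67, edgeR adjusted p = 0.395), and that in DFO against VE was 1.74 (SE 0.68, adjusted p = 0.323), both past the unadjusted threshold. The FAC against DFO call was lost with total counts, with the replicate block, in both limma fits (-0.06 in each) and with library read totals (-0.21, SE 0.86, edgeR adjusted p = 0.914), and the DFO against VE call was lost in limma on log2(RPM + 0.1). Whether reads of such a repeat can be assigned to more than 1 of these entries was not tested.

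**Figure D4:**
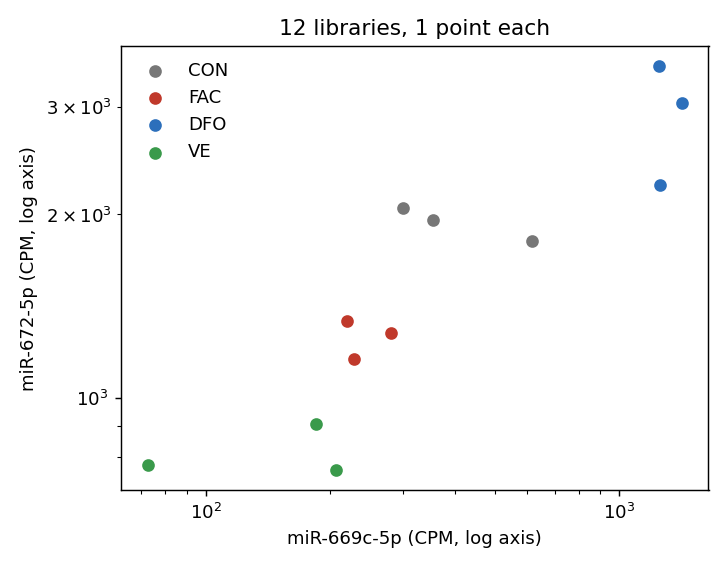
CPM of miR-669c-5p and miR-672-5p in the 12 libraries, both on log axes, with 1 point per library and 1 colour per group. The DFO libraries have the highest and the VE libraries the lowest levels of both miRNAs.

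The 12 other entries were seen in few libraries. Of their 144 values, 32 were above 0 (22.2%), compared with 50.3% over all 637 entries. Of the 12, 7 were found in 1 library only (58.3%), against 22.8% of all entries. The values above 0 fell into 11 of 1 to 4 counts, 1 of 12 counts and 20 of 20 to 159 counts, so an entry was mostly either absent or present with 20 or more reads. At the floor of 3 counts, an absent entry may have been present at up to 6.64 CPM in the shallowest library.

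In the miR-669 family, the joined entry miR-669a-3p/miR-669o-3p was the most widely found after miR-669c-5p, with counts in 8 libraries. It had 51, 0 and 2 counts in CON, 69, 104 and 0 in FAC, 2, 102 and 12 in DFO, and 0, 0 and 80 in VE. High and absent libraries occurred in the same group, and its means of 7.55 to 15.0 CPM differed by less than the SDs of 9.98 to 23.5 CPM. Its unadjusted edgeR p was 0.719 or more in each of the 6 comparisons. The entries miR-669d-2-3p, with 50 counts, and miR-669l-3p, with 2, were found in FAC replicate 1 alone, and miR-669a-3-3p had 2 counts in VE replicate 3.

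In the miR-467 family, miR-467d-3p had 395 counts, in FAC replicate 1 (62), DFO replicates 2 and 3 (77 and 159) and VE replicate 3 (97). The multicopy miR-467a-3p had 31, 109 and 4 counts in DFO, 1, 20 and 0 in FAC, 1, 0 and 0 in CON, and 0 in each VE library. With miR-669c-5p and miR-669a-3p/miR-669o-3p, it was 1 of 3 entries found in all 3 DFO libraries. With counts pooled over the group, miR-467a-3p stood at 15.5 CPM in DFO against a floor of 0.345 CPM over VE. The pooled level was thus at least 44.95-fold higher, and the test missed the threshold (edgeR adjusted p = 0.391). DFO replicate 2 gave 109 of the 144 counts of miR-467a-3p in DFO, and without it the pooled bound was 22.99-fold. These bounds do not cover the spread between libraries, and DFO replicate 3 was at only 2.91 CPM. With filterByExpr, DESeq2 or limma on RPM values it was past the unadjusted threshold in DFO against VE. The entry miR-467b-3p had 1 count, in FAC replicate 2.

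The miR-466 family had no count in the 3 CON libraries, where 3 counts correspond to 2.48 to 6.64 CPM, and none in VE replicates 1 and 2. The joined miR-466a-3p/miR-466e-3p had 86 and 40 counts in DFO replicates 2 and 3, 100 in VE replicate 3 and 1 in FAC replicate 3. In contrast, miR-466g had 109 counts in DFO replicate 1, where miR-466a-3p/miR-466e-3p had 0, and 27 and 1 in FAC replicates 2 and 3. The 43 counts of miR-466m-3p were in FAC replicate 1, and the 2 of miR-466i-3p, the entry with its gene outside Sfmbt2, were in FAC replicate 3. Each DFO library thus held 1 of the family's entries, miR-466g in replicate 1 and miR-466a-3p/miR-466e-3p in replicates 2 and 3.

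Summed over families, the 13 entries made up 0.141% ± 0.00778 of the miRNA counts in DFO, 0.0439% ± 0.0193 in CON, 0.0263% ± 0.00451 in FAC and 0.0181% ± 0.00279 in VE (SD, n = 3 each). Relative to the library total, the sums were 181 ± 110 RPM in DFO, 66.4 ± 24.7 in FAC, 21.4 ± 4.06 in VE and 16.4 ± 14.5 in CON. The CON sum in RPM fell to 8.06 without CON replicate 1 and was 21.5, level with VE, without CON replicate 2. Without miR-669c-5p, the 12 remaining entries summed to 84.1, 76.7 and 157 CPM in DFO, 30.0, 29.1 and 0.739 in FAC, 42.9, 0 and 2.86 in CON, and 0, 0 and 79.0 in VE. DFO was still the group with the highest mean, 106 ± 44.1 CPM, but VE replicate 3 lay within its range, and without that library the sum in VE was 0. No test was run on the sums, which are descriptions.

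**Figure D5:**
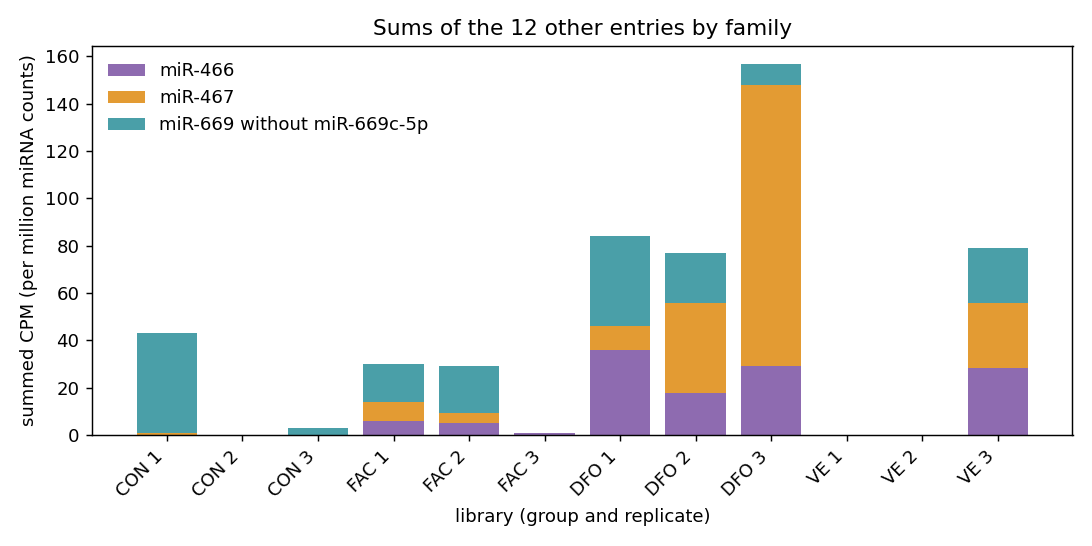
Summed CPM of the 12 entries other than miR-669c-5p in each library, stacked by family. All 3 DFO libraries and VE replicate 3 lie above 76 CPM, and CON replicate 2 and VE replicates 1 and 2 are at 0.

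The number of entries found also differed between libraries. At least 1 count was found for 3, 1 and 2 of the 13 entries in CON, 7, 5 and 4 in FAC, 5, 5 and 5 in DFO, and 1, 1 and 5 in VE. FAC had the deepest miRNA counts, and with each library thinned to the 452021 counts of the smallest, the expected number fell to 3.40 ± 1.89 in FAC and stayed at 4.69 ± 0.38 in DFO, with 1.75 ± 0.70 in CON and 2.08 ± 1.87 in VE (SD, n = 3 each). At this depth, the expected numbers over all 637 entries were 238, 267 and 259 in CON and 350, 403 and 235 in FAC. They were 252, 279 and 242 in DFO and 238, 247.5 and 254 in VE. In all, 11 of the 13 entries had a count in some FAC library (84.6%), 7 in DFO (53.8%), 5 in VE (38.5%) and 3 in CON (23.1%). Over all 637 entries these shares were 84.6%, 68.6%, 62.5% and 58.2%. Only 1 of the 13 entries (7.69%) was found in all 3 libraries of FAC, where 41.4% of all 637 entries were, and 3 (23.1%) in all 3 of DFO, where 32.3% of all entries were.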

How the data were processed

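Per the study's methods, small RNA of exosomes was read at 15 to 41 bp, and mm9 is named in the submitters' processing notes. The aligner, the miRNA database and the rule for reads that fit several miRNAs are not given in the sources used here. The authors deposited, for each library, counts per miRNA and the same values as RPM, each count relative to a library total. Groups were taken from the labels.

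The members and lists were chosen with earlier results of these data known. Named entries are the 12 with the largest mean CPM, the top of each family, those past the threshold and near-identical ones with 10 counts. From the counts, CPM, sums, detection and rarefied expectations were computed (Python 3.11.15, SciPy 1.17.1). Tests used edgeR 4.0.16 (quasi-likelihood, TMM, at least 10 counts over 12 libraries), and alternatives used DESeq2 1.42.0 and limma 3.58.1. All were run on simulated counts, but a pass was required only of edgeR, at a smaller spread than that of these data. The SE is the log2 fold change divided by the root of the test's F. The common biological coefficient of variation was 1.57. No 2 libraries agreed within sampling noise (smallest chi-square per degree of freedom 155.7 over 66 pairs). RefSeq sequences (GRCm38.p6) were matched by name.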

Additional observations from a re-analysis of the deposited data

How the results depend on the processing

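The counts of entries past the threshold moved as follows. In FAC against CON, 0 became 1 with DESeq2, where miR-669c-5p was lower in FAC (log2 fold change -1.23, SE 0.43). It also became 1 with both limma fits, but there miR-669c-5p was higher in FAC. Library read totals in edgeR, a setting added after the data were seen, gave 1 as well. That entry was miR-467d-3p, higher in FAC (log2 fold change 7.35, SE 3.6). Its only counts in FAC and CON were 62 in FAC replicate 1. In FAC against DFO, 2 became 1 with the replicate block, and 0 with both limma fits, with library read totals and at an adjusted p under 0.05. With DESeq2 and filterByExpr it stayed 2, with miR-466a-3p/miR-466e-3p in place of miR-669f-3p. With 1 library left out, 1 to 2 passed. In FAC against VE, 0 became 1 with limma on log2(RPM + 1), and 0 to 1 passed with 1 library left out. In DFO against CON, 1 stayed 1 with DESeq2 and filterByExpr, with miR-669c-5p in place of miR-467d-3p. It became 0 with the replicate block and at an adjusted p under 0.05, 2 with both limma fits and 3 with library read totals, and 0 to 1 passed with 1 library left out. In VE against CON, 0 became 1 with DESeq2 and filterByExpr, where miR-669c-5p was lower in VE. It also became 1 with library read totals, where the entry was miR-467d-3p, higher in VE (log2 fold change 8.02, SE 3.73). Between 0 and 1 passed with 1 library left out. In DFO against VE, 1 became 3 with RLE factors, 2 with DESeq2, filterByExpr and both limma fits, and 0 at an adjusted p under 0.05, and 1 to 2 passed with 1 library left out. The cause was not tested.

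The log2 fold change of miR-669c-5p turned in FAC against CON (2.15 and 2.25 with limma at pseudocounts of 1 and 0.1, 1.97 with library read totals) and in VE against CON (0.38, 0.42 and 0.17), where by construction the miRNA share is not scaled out. It kept its direction in the other comparisons under all 10 alternatives. Same-numbered libraries did not deviate together (mean r -0.00353 over 18 pairs, at most 0.0892), and the mean r for different numbers was 0.00186. No source used here says whether the numbers are a pairing, and these correlations cannot decide it. Under the block, miR-669c-5p kept a log2 fold change of -2.57 in FAC against DFO, and miR-669f-3p and miR-467d-3p were no longer past the threshold.

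Without miR-669c-5p, the sums fell to 0.00153% (CON), 0.002% (FAC), 0.0106% (DFO) and 0.00263% (VE) of miRNA counts, and to 0.742, 5.2, 11.5 and 3.84 RPM. Mean numbers of entries found were 2.0 in CON, 5.33 in FAC, 5.0 in DFO and 2.33 in VE. In FAC they fell to 3.33 at 3 or 10 counts and to 3.4 at the smallest depth, and in DFO to 4.67, 4.33 and 4.69. With 3 libraries per group and 112 of 144 values of the other 12 entries at 0, many of their folds could be given only as lower bounds. These are bounds on pooled counts and do not cover the spread between libraries.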
